A study of Mus musculus with 6 samples.

Results

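The 33 genes described here encode the glucose carriers, the glycolytic enzymes, the lactate carriers and the hypoxia response of the cell. They were taken from the count table wherever its gene symbol column held 1 of the 33 listed symbols, out of 39017 genes in all. Of these, 23 belong to glucose uptake, glycolysis and lactate handling and 10 to the hypoxia-inducible factor (HIF) system. The samples were induced germinal center B cells (iGBs), splenic B cells of C57BL6/J mice grown for 3.5 days on 40LB fibroblasts that supply CD40L and BAFF, with IL-4 at 5 ng/ml per the labels, whereas the study's methods state a lower concentration. Control iGBs carried Cγ1-cre alone, and Prmt1-null iGBs carried Cγ1-cre with floxed Prmt1 (Prmt1 F/F), so both groups expressed the recombinase. Cγ1-cre is active in B cells that transcribe the Cγ1 germline locus after activation, and deletion therefore takes place in culture and need not be complete. There were 3 libraries of each genotype, each from its own mouse, with 1 male and 2 females per group.

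Glycolysis splits glucose into pyruvate in the cytosol. Activated B cells take up more glucose than resting ones and send part of the pyruvate to lactate. HIF-1, of which HIF1α is the oxygen-regulated subunit, drives most of these genes when oxygen falls, because prolyl hydroxylases of the EGLN family then stop marking HIF1α for destruction. MYC binds E-boxes in many of the same promoters. HIF-1 binds a core of 5 bases, ACGTG or GCGTG, within the hypoxia response element.

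To show how these letters lie in the genes at hand, 4 promoters are printed 5′ to 3′ with every match to the core, on either strand, in capitals. Ldha and Bnip3 were chosen for the most matches, Pgk1 as a member of the lower pathway, and Pdk1 as the member whose Prmt1-null libraries all lay below the Control libraries, without passing the test. Each line gives up to 250 bases upstream of a RefSeq start (GRCm38.p6), ending before any annotated exon.
Ldha, chr7:46845554-46845803, strand +: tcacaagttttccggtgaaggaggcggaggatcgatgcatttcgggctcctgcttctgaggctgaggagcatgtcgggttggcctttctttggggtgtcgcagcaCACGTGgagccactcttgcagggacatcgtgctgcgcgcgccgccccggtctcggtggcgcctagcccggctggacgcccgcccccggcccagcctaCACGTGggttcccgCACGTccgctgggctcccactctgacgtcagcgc
Pgk1, chrX:106186850-106187099, strand +: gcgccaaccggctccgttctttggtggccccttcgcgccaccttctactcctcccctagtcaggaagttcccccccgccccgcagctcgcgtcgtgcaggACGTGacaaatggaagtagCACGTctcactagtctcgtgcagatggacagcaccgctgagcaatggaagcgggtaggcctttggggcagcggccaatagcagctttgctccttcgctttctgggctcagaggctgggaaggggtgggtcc
Bnip3, chr7:138909520-138909756, strand minus: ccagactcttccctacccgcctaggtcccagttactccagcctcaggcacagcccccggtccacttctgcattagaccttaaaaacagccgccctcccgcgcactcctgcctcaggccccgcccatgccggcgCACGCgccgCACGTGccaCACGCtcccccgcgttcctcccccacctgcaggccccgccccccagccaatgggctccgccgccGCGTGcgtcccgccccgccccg
Pdk1, chr2:71872974-71873223, strand +: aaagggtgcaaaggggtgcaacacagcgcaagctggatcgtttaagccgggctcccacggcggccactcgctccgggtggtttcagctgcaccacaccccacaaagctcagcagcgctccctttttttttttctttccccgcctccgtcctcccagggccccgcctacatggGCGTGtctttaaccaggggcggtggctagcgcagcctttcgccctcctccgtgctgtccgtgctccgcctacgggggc
The Ldha window, upstream of the enzyme that reduces pyruvate to lactate, held 5 matches, counted on both strands. That count includes 2 E-boxes (CACGTG), which contain the core on each strand and therefore count as a pair. Bnip3, which encodes a mitophagy receptor, likewise had 5 matches, with 1 E-box among them. Pgk1 had 2 matches and Pdk1 had 1.
RefSeq windows were found for 31 of the 33 genes, 47 windows in all, since some genes have several starts. Some windows of the same gene overlap, as in Aldoa, Eno1 and Pfkm, so a site can be counted more than once. Bnip3l and Slc2a3 were not matched. For a comparison with all genes, the whole 250 bases before each start were searched, annotated exons included. At least 1 core lay in 37 of the 47 windows (78.7%), against 38.6% of the 32851 windows of all genes. At least 2 lay in 46.8% of the member windows and in 16.7% of all windows. In the stretches before any annotated exon, which are shorter and in some windows empty, 26 of the 47 member windows held at least 1 core and 15 at least 2, and the same was not computed for all genes. CACGTG was present in 12.8% of the member windows and in 6.02% of all. The list holds genes chosen as HIF targets, so its share of cores is not independent of how it was made. A match of 5 letters is a description of the sequence and does not show that HIF-1 or MYC bound there.

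The libraries held 45343250 to 62774232 counts, and 18268 genes had enough counts to be tested with edgeR's quasi-likelihood test. Levels are given as normalized counts, which are counts scaled to a common library size. Prmt1 itself stood at 3964, 3924 and 4838 normalized counts in Control iGBs and at 1745, 1478 and 1477 in Prmt1-null iGBs, a log2 fold change of -1.44 ± 0.095 (SE, adjusted p = 1.11e-05), which leaves 36.9% of its transcripts. The 5 B cell markers summed to 4491 to 4832 CPM (counts scaled to the library total) in Control and to 4947 to 5160 CPM in Prmt1-null iGBs. The 6 plasma cell markers summed to 966 to 1086 and 1105 to 1195 CPM. In both of these lists the sums were higher in Prmt1-null iGBs without overlap, while no single marker passed the test. Pax5 and Jchain went the other way (log2 fold change -0.01 and -0.09). Of all tested genes, 9.95% lay higher in Prmt1-null iGBs without overlap. Feeder fibroblast markers summed to 27.8 to 31.9 and 31.5 to 36.9 CPM, with 1 of 10, Postn, under 3 counts in every library. T cell markers summed to 0.701 to 2.20 and 0.784 to 2.43 CPM, erythroid and platelet markers to 2.63 to 3.83 and 2.93 to 3.38 CPM, and myeloid markers to 37.6 to 42.9 and 39.8 to 45.5 CPM, with Adgre1, 1 of the 5 myeloid markers, past the test (log2 fold change 0.73, adjusted p = 0.0319). The part of these marker levels in the results below was not tested.

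Compared per kilobase of exon, the glycolytic enzymes of these cells were led by the aldolase Aldoa (20443 normalized counts per kb over the 6 libraries). It was followed by the glucose 6-phosphate isomerase Gpi1 (7210.2 per kb), triosephosphate isomerase Tpi1 (6479 per kb), pyruvate kinase Pkm (6184 per kb) and Ldha (4229.8 per kb). The next in order were Bnip3l (3916 per kb), enolase Eno1 (3434 per kb), phosphoglycerate kinase Pgk1 (3005 per kb) and Hif1a (2109 per kb). Steps that commit glucose to the pathway were lower, with the carrier Slc2a1 at 1133, hexokinase Hk2 at 486 and phosphofructokinase Pfkl at 393 normalized counts per kb. The order of neighbouring genes was not always resolved. In Control iGBs the means of Gpi1, Tpi1 and Pkm were 7244, 5883 and 5586 per kb, with Gpi1 ahead and the libraries of Tpi1 and Pkm overlapping. In Prmt1-null iGBs the means were 7177, 7074 and 6782 per kb, and the libraries of all 3 genes overlapped. At the bottom, Ldhb, the heart-type lactate dehydrogenase subunit, had 0, 18 and 4 raw counts in Control and 6, 8 and 2 in Prmt1-null libraries. P4ha2, a collagen prolyl 4-hydroxylase, had 0, 4 and 14 raw counts in Control and 4, 2 and 8 in Prmt1-null libraries. Neither passed the filter on low counts, so 31 of the 33 genes were tested, and a limit of 3 counts corresponds to 0.0478 to 0.0662 CPM depending on the library.
Gapdh, a step that usually ranks among the most abundant transcripts, was only 27th at 220.2 per kb. For Gapdh, 24.6% of the 50-base stretches of its transcripts also occur in transcripts of at least 2 other annotated genes, and reads with more than 2 locations were not counted. The same measure was 53.7% for Pgk1, 18.7% for Eno1, 18% for Bnip3, 10.8% for Pgam1 and 5.48% for Ldha, so the levels of these genes are uncertain. It was 0.63% for Aldoa.

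**Figure D1:**
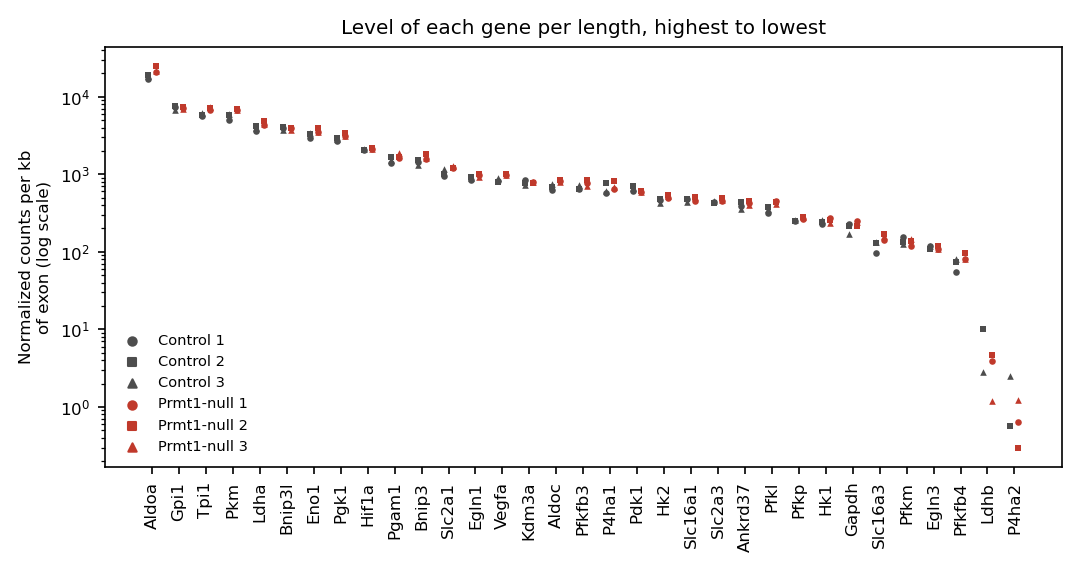
Normalized counts per kilobase of exon (log axis) of the 33 genes in the 6 libraries, Control and Prmt1-null, ordered by the mean over all libraries. Aldoa leads at a mean of 20443 per kb, while Ldhb and P4ha2 are at 3.77 and 0.865 per kb, and values of 0 (Ldhb and P4ha2 in Control 1) are not drawn.

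No member passed the test at an adjusted p under 0.05 by edgeR's quasi-likelihood test, while 1.19% of all tested genes did (218 genes, 0.591% higher and the rest lower in Prmt1-null iGBs). The glycolytic enzymes nevertheless sat mostly on one side. Of the 31 tested members, 26 had a higher and 5 a lower level in Prmt1-null iGBs, 83.9% higher against 49.9% of all tested genes. The median log2 fold change was 0.17 for the members and -0.001 for all tested genes. At an unadjusted p under 0.05, 15 members were higher and 1 was lower, where 6.5% and 7.0% of all tested genes were. In 16 members every Prmt1-null library lay above every Control library, which 9.95% of tested genes showed, and in 1 member every one lay below, which 9.92% showed. These genes are abundant, with a median SE of 0.0739 on the log2 scale against 0.142 for all tested genes. The differences were small, from -0.16 to 0.39 log2, with 22 members above 0.1, 8 within 0.1 of zero and 1 below -0.1. In bulk RNA, fewer cells of a type and less RNA per cell cannot be told apart.
The other tools placed some of these genes past the same threshold. The DESeq2 Wald test called 5 members higher (Aldoa, Pfkl, Pkm, Tpi1 and Vegfa), where it called 1.78% of all tested genes higher. Limma-voom called 3 members higher (Aldoa, Pkm and Tpi1), where it called 0.712% of tested genes higher.

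**Figure D2:**
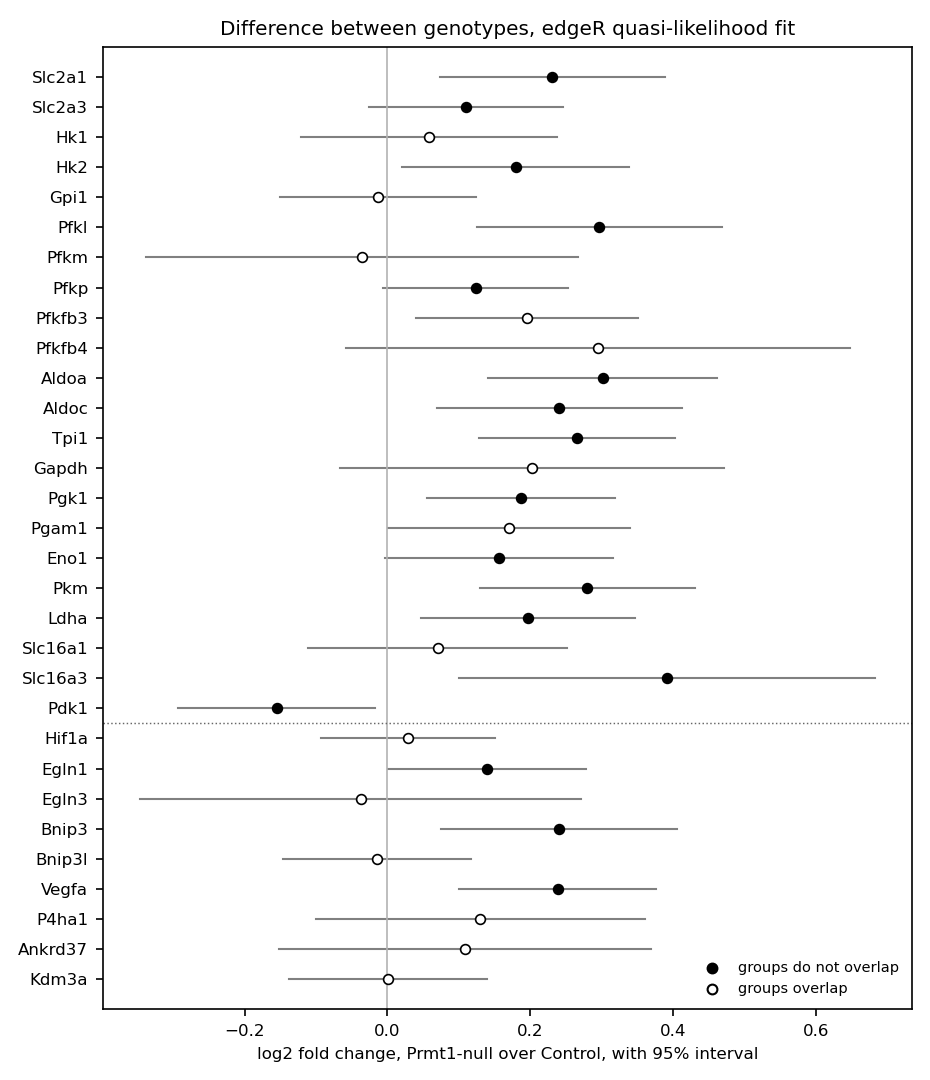
Log2 fold change of Prmt1-null over Control iGBs for the 31 tested members (edgeR's quasi-likelihood fit, bars show the 95% confidence interval), in pathway order, filled where the groups do not overlap, with a dotted line between the glycolysis and the hypoxia members. Of the 31 points, 26 lie to the right of zero and Pdk1 lies furthest to the left at -0.16.

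At the entry of the pathway, both glucose carriers lay higher without passing the test. Slc2a1, which encodes the carrier GLUT1, had 3380.1, 3505 and 4076 normalized counts in Control and 4170.5, 4252 and 4442 in Prmt1-null iGBs. All Prmt1-null libraries stood above all Control libraries, and the log2 fold change was 0.23 (95% confidence interval 0.07 to 0.39, adjusted p = 0.162). Slc2a3, which encodes the high-affinity carrier GLUT3, ranged from 3116 to 3243 in Control and from 3320.0 to 3594 in Prmt1-null iGBs (log2 fold change 0.11, adjusted p = 0.486). Hexokinase traps glucose by phosphorylation. Hk2, the inducible form, ranged from 2513 to 2897 in Control and from 2913 to 3224 in Prmt1-null iGBs, a narrow separation (log2 fold change 0.18, adjusted p = 0.291). Hk1, the constitutive form, overlapped, at 1965 to 2183 against 1982 to 2316 (log2 fold change 0.06, adjusted p = 0.818).

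Gpi1, which converts glucose 6-phosphate to fructose 6-phosphate, had 47215, 49199 and 43793 normalized counts in Control and 46631, 47541 and 44744 in Prmt1-null iGBs. The groups overlapped fully, and the log2 fold change was -0.01 with a 95% confidence interval of -0.15 to 0.12. Among the 5 most abundant members per kb, Gpi1 was the one whose groups overlapped. Phosphofructokinase, the committing step, is built from 3 subunits. Pfkl, the liver type, had 2112, 2564 and 2382 normalized counts in Control and 2978, 2909 and 2789.5 in Prmt1-null iGBs. The 3 Prmt1-null libraries lay above the highest Control library, 22.9% higher on average (log2 fold change 0.30 ± 0.0798 SE, adjusted p = 0.096). Pfkp, the platelet type, ranged from 3314 to 3482 and from 3596 to 3739.5 (log2 fold change 0.12, adjusted p = 0.402). Pfkm, the muscle type, ranged from 423 to 524 and from 398 to 492, with overlap (log2 fold change -0.04, adjusted p = 0.94). Pfkfb3 and Pfkfb4 make and break fructose 2,6-bisphosphate, the activator of phosphofructokinase. Pfkfb3 had 4949.8, 4865 and 5447 normalized counts in Control and 5763, 6372 and 5339.8 in Prmt1-null iGBs, with the third Prmt1-null library inside the Control range (log2 fold change 0.20, adjusted p = 0.232). Pfkfb4 was far less abundant, at 267 to 396 and 391 to 468 (log2 fold change 0.30, adjusted p = 0.471).

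The steps that split and interconvert the 3-carbon sugars held the smallest p-values among the members. Tpi1 (chr6:124810586-124814296, minus strand) had 15616, 16032 and 16944 normalized counts in Control and 18300.0, 19973 and 20152 in Prmt1-null iGBs. The lowest Prmt1-null library exceeded the highest Control library, and the means were 16197 ± 679 and 19475 ± 1022 (SD, n = 3). The log2 fold change was 0.27 ± 0.0639 (SE), with a 95% confidence interval of 0.13 to 0.40 and an adjusted p of 0.0628 by edgeR's quasi-likelihood test. Aldoa (chr7:126795234-126800751, minus strand), which cleaves fructose 1,6-bisphosphate, had 49261, 56012 and 54666 normalized counts in Control and 61437, 72288 and 63393 in Prmt1-null iGBs. The groups were again apart, at 53313 ± 3573 and 65706 ± 5784 (SD, n = 3), a log2 fold change of 0.30 (95% confidence interval 0.14 to 0.46, adjusted p = 0.0734). Exons of Aldoa and Tpi1 overlap those of Fam57b and Spsb2 on the opposite strand, and the strand setting of the counting is not given in the sources used here. Other members, among them Gpi1, Gapdh and Pfkp, also have overlaps on the opposite strand. Exons of Pkm, Hif1a and Pfkm overlap those of Gm49759, Gm49321 and Gm26513 on the same strand. The part of these overlaps in the counts was not tested. Aldoc, the brain-type aldolase, ranged from 2048 to 2439 and from 2558 to 2776 (log2 fold change 0.24, adjusted p = 0.182).

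The 5 genes of the lower pathway, from glyceraldehyde 3-phosphate to pyruvate, were all higher by sign. Pkm (chr9:59656368-59679375, + strand), whose product makes pyruvate and ATP, had 25217, 28867 and 29727 normalized counts in Control and 33408, 34964 and 33379.5 in Prmt1-null iGBs. Control 1 was the lowest library and the Prmt1-null libraries clustered closely, at 27937 ± 2394 and 33917 ± 906 (SD, n = 3). The log2 fold change was 0.28 (95% confidence interval 0.13 to 0.43, adjusted p = 0.0768). Pgk1, the first ATP-yielding step, ranged from 6009 to 6509 in Control and from 6939 to 7622 in Prmt1-null iGBs (log2 fold change 0.19, adjusted p = 0.176). Eno1 ranged from 15969.6 to 18504 and from 18601 to 21204 (log2 fold change 0.16, adjusted p = 0.387), so that its groups were separated by less than the spread within either. Pgam1, the phosphoglycerate mutase, overlapped at 2787 to 3302 and 3233 to 3727 (log2 fold change 0.17, adjusted p = 0.369). Gapdh, which makes NADH, overlapped as well, with 936, 901 and 703 normalized counts in Control and 1019.6, 890.5 and 1011 in Prmt1-null iGBs (log2 fold change 0.20, adjusted p = 0.524).

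**Figure D3:**
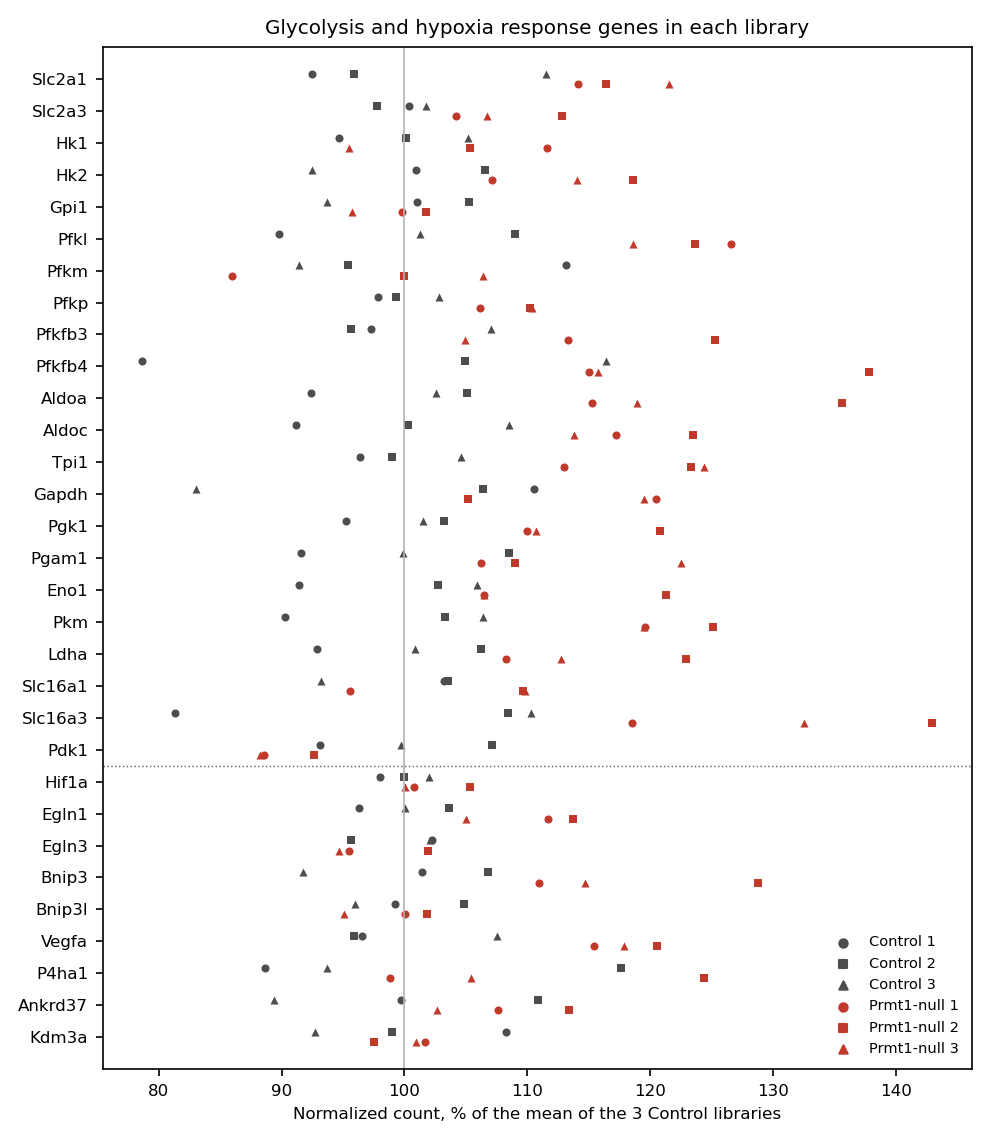
Normalized count of each tested member in each library, as a percentage of the mean of the 3 Control libraries, 1 row per gene in pathway order, with grey points for Control and red points for Prmt1-null libraries and a dotted line between the glycolysis and the hypoxia members. In Tpi1, Aldoa and Pkm all Prmt1-null points lie to the right of all Control points, while in Gpi1, Bnip3l and Kdm3a the groups overlap.

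Past pyruvate, no gene for making or exporting lactate or for restraining pyruvate oxidation passed the test. Ldha had 12121, 13862 and 13154 normalized counts in Control and 14120.4, 16035 and 14710.3 in Prmt1-null iGBs, without overlap (log2 fold change 0.20, adjusted p = 0.211). Slc16a3, which encodes the lactate exporter MCT4, had 519, 692 and 704 normalized counts in Control and 756, 913 and 846 in Prmt1-null iGBs. It showed the largest log2 fold change of the members, 0.39 (95% confidence interval 0.10 to 0.68, adjusted p = 0.202), with Control 1 well below the other libraries. Slc16a1, which encodes the carrier MCT1, overlapped at 1939 to 2155 and 1989 to 2284 (log2 fold change 0.07, adjusted p = 0.782). Pdk1 encodes a kinase that inactivates pyruvate dehydrogenase and so restrains the oxidation of pyruvate in the mitochondrion. It had 4804, 5529 and 5143 normalized counts in Control and 4569, 4777 and 4552 in Prmt1-null iGBs. All 3 Prmt1-null libraries lay below the Control libraries, the one member with that order, at a log2 fold change of -0.16 (95% confidence interval -0.29 to -0.02, adjusted p = 0.293).

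Within enzyme families, the isozyme leading per kb of exon was the same in all 6 libraries. For phosphofructokinase, the lead of Pfkl rested on exon length (6675 bases against 13401 for Pfkp). In normalized counts not divided by length, Pfkp (3314 to 3739.5) stood above Pfkl (2112 to 2978) in all 6 libraries. Ldha made up 99.9% of the pair Ldha and Ldhb per kb in both groups, and Aldoa made up 96.4% of the 2 aldolases in Control and 96.5% in Prmt1-null iGBs. Slc2a1 held 70.2% ± 1.83 and 72.0% ± 1.01 of the 2 glucose carriers, and Hk2 held 65.1% ± 2.54 and 67.1% ± 2.51 of the 2 hexokinases (SD, n = 3). Pfkl held 47.3% ± 3.13 and 51.4% ± 2.03 of phosphofructokinase, and these ranges overlapped. In 3 families they did not, and in all the other families compared they overlapped. As single genes, 9.95% of all tested genes lay higher and 9.92% lower in Prmt1-null iGBs without overlap. The Slc16a3 share of the monocarboxylate carriers was 16.7%, 21.1% and 23.2% in Control and 24.0%, 25% and 23.6% in Prmt1-null iGBs, and the Bnip3 share of the pair Bnip3 and Bnip3l was 26.9%, 26.9% and 25.6% against 28.6%, 31.3% and 30.3%. The Egln1 share of the prolyl hydroxylases Egln1 and Egln3 was 87.9%, 89.3% and 88.3% in Control and 90.02%, 89.6% and 89.5% in Prmt1-null iGBs, and for Slc16a3 and Egln1 the separation was narrower than the spread within Control. No test was run on these shares, which follow from the same counts as the fold changes.

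**Figure D4:**
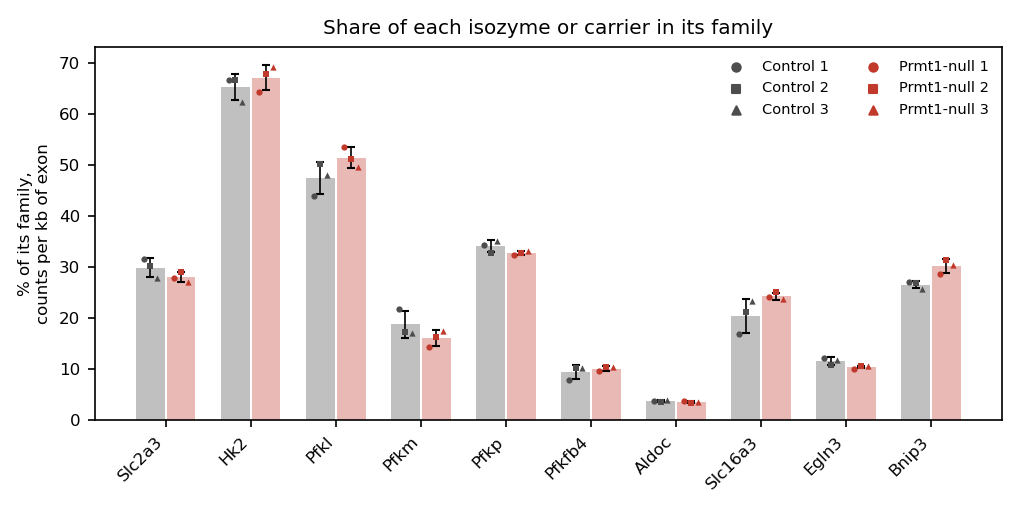
Share of each family's normalized counts per kilobase (percent) held by 10 of the genes, with the mean as a bar, the SD (n = 3) as an error bar and a point for each library, Control in grey and Prmt1-null in red. The Bnip3 share lies between 25.6% and 26.9% in Control and between 28.6% and 31.3% in Prmt1-null iGBs.

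The hypoxia genes outside glycolysis likewise held no gene past the test. Hif1a had 12061, 12304 and 12555 normalized counts in Control and 12405, 12964 and 12308 in Prmt1-null iGBs. The ranges overlapped and the log2 fold change was 0.03, with a 95% confidence interval of -0.09 to 0.15. Of the prolyl hydroxylases, Egln1, which encodes the main oxygen sensor PHD2, ranged from 3071 to 3306 and from 3350.1 to 3627 (log2 fold change 0.14, adjusted p = 0.369). Egln3 was nearly level, at 293 to 313 and 290.2 to 313 (log2 fold change -0.04, adjusted p = 0.937). The HIF target Vegfa, which encodes an angiogenic growth factor, had 3475, 3450.4 and 3868 normalized counts in Control and 4153, 4336 and 4241 in Prmt1-null iGBs. Its groups did not overlap, and it had the smallest p of the hypoxia members (log2 fold change 0.24, 95% confidence interval 0.10 to 0.38, adjusted p = 0.0978). Bnip3 was also apart, with 3259.8, 3434 and 2948 against 3566, 4139 and 3686 normalized counts (log2 fold change 0.24, adjusted p = 0.165). Its relative Bnip3l, which shares the mitophagy role, was more abundant per kb (3916 against 1548 normalized counts per kb) and overlapped between the groups, at 14570.3 to 15918 and 14444 to 15467 normalized counts (log2 fold change -0.01, adjusted p = 0.945).
P4ha1, a collagen prolyl 4-hydroxylase, varied as much within as between groups, at 2373 to 3148 and 2644 to 3329 (log2 fold change 0.13, adjusted p = 0.654). Ankrd37, a small ankyrin repeat gene induced by HIF-1, ranged from 543 to 674 and from 624 to 689.5 (log2 fold change 0.11, adjusted p = 0.763). Kdm3a, a histone H3K9 demethylase, ranged from 5977 to 6979 and from 6286 to 6551, and its mean differed by 0.0356% (95% confidence interval of the log2 fold change -0.14 to 0.14). Among the 9 tested hypoxia members, 7 were higher by sign and the median log2 fold change was 0.11. In 3 of them every Prmt1-null library lay above every Control library. Among the 22 tested glycolysis members, 19 were higher by sign and the median was 0.19. In 13 of these every Prmt1-null library lay above every Control library, and in 1, Pdk1, below. Of all tested genes, 9.95% lay above and 9.92% below in that way. Whether the 2 groups of members differ was not tested.

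Read library by library, the members took 0.462%, 0.5% and 0.482% of all counts in Control iGBs and 0.513%, 0.558% and 0.531% in Prmt1-null iGBs, or 0.481% ± 0.019 and 0.534% ± 0.0231 (SD, n = 3). Aldoa, Gpi1, Pkm and Tpi1 together made up 54.0% to 54.5% of the member counts in Control and 55.4% to 55.8% in Prmt1-null libraries. Control 1 held the lowest level of 17 of the 31 tested members and Prmt1-null 2 the highest of 17. The median log2 deviation of the members from their own means was -0.12 in Control 1, -0.03 in Control 2 and -0.07 in Control 3. It was 0.03, 0.13 and 0.07 in the Prmt1-null libraries, while the median over all tested genes stayed between 0.003 and 0.013. Control 1 was also the shallowest library and the one male of its group, and the part of depth and sex in its values was not tested. Without Control 1 the median log2 fold change of the members was 0.12 and without Prmt1-null 2 it was 0.13. Within the females alone, 28 of 31 members had the higher mean in Prmt1-null iGBs and the median log2 difference was 0.15. Between the single male of each group, Control 1 and Prmt1-null 3, 25 of 31 were higher, with a median of 0.18, and all tested genes split at 50.5% and 50.7%.

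In 7 further lists of neighbouring pathways, 2 genes passed the test, which 1.19% of all tested genes did. Both were among the 32 tested of 33 other hypoxia-induced genes, and both rose. Hmox1, the heme oxygenase induced by oxidative stress and heme as well as hypoxia, had 634, 516 and 502 normalized counts in Control and 979, 1396 and 1126 in Prmt1-null iGBs (log2 fold change 1.08 ± 0.144 SE, adjusted p = 0.00368). Ddit4, the stress-induced inhibitor of mTORC1 also named REDD1, had 2349, 2430.2 and 2475 against 2953, 3093 and 3079 normalized counts (log2 fold change 0.33 ± 0.0659 SE, adjusted p = 0.0296). In both genes every Prmt1-null library was above every Control library. The adjusted p of Ddit4 ranged from 0.0248 to 0.165 when single libraries were left out and passed in 1 of those 6 fits, the one without Control 3. Its call was also lost under the replicate block and after removal of GC content and length trends (adjusted p up to 0.0564). The median log2 fold change over the 32 genes was 0.05.
No gene passed by edgeR's quasi-likelihood test in the other lists, where an unadjusted p under 0.05 was reached by 4 HIF regulators, 4 other glycolysis isozymes, 2 glycogen genes and 1 gene of mitochondrial pyruvate use. The isozymes and the glycogen genes among them split evenly by direction and the others were higher by sign, beside 6.5% of all tested genes higher and 7.0% lower. The 21 tested other glycolysis isozymes had a median log2 fold change of 0.07 and their smallest p in Ldhd, a mitochondrial D-lactate dehydrogenase (0.69, adjusted p = 0.177). The 9 pentose phosphate genes had a median of 0.04 and the smallest p in the transketolase Tkt (0.12, adjusted p = 0.399). The 16 tested genes of mitochondrial pyruvate use and gluconeogenesis had a median of 0.05 and the smallest p in pyruvate carboxylase Pcx (0.59, adjusted p = 0.194). The 13 glycogen genes had a median of 0.02 and the smallest p in the muscle glycogen phosphorylase Pygm (0.61, adjusted p = 0.203). The 15 tested HIF regulators had a median of -0.02 and the smallest p in Os9, a lectin of the endoplasmic reticulum (0.26, adjusted p = 0.136). The 10 tested MYC and mTORC1 components had a median of 0.02 and the smallest p in Rheb, the small GTPase that activates mTORC1 (-0.15, adjusted p = 0.467).

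**Figure D5:**
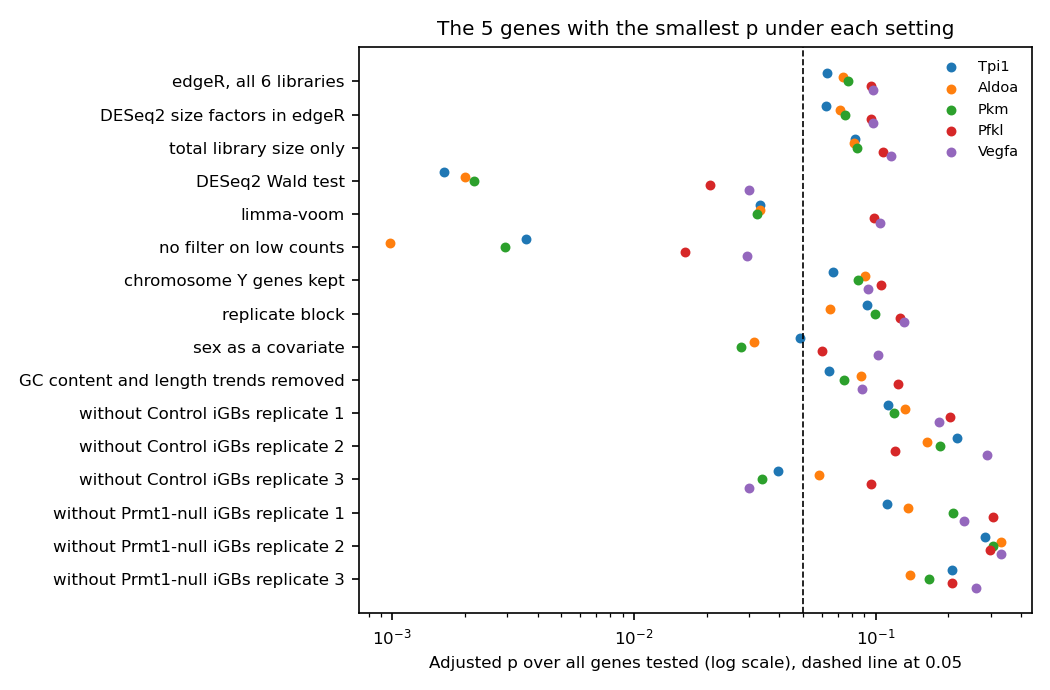
Adjusted p (log axis) of the 5 members with the smallest p, Tpi1, Aldoa, Pkm, Pfkl and Vegfa, under each setting of the analysis, 1 row per setting, with a dashed line at 0.05. All 5 lie left of the line with the DESeq2 Wald test and with no filter on low counts, and all 5 lie right of it in the top row, the edgeR fit that the text reports.

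How many members passed the threshold moved with the setting, while their median stayed between 0.12 and 0.20 on the log2 scale. With no filter on low counts 7 members were called higher (Aldoa, Bnip3, Pfkl, Pkm, Slc2a1, Tpi1 and Vegfa), beside 1.36% of all genes tested that way. With sex added to the model 3 were (Aldoa, Pkm and Tpi1), beside 0.821% of all genes. Without Control 3 there were 4 (Pkm, Slc2a1, Tpi1 and Vegfa), beside 0.938% of all genes. Under DESeq2 size factors, total library size, kept chromosome Y genes, the replicate block and the removal of trends with GC content and length, none passed. The adjusted p of Tpi1 ranged from 0.00163 to 0.0918 over all alternatives, lowest with the DESeq2 Wald test, and from 0.0395 to 0.284 over single libraries left out.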

How the data were processed

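RNA-seq was performed on 6 iGB cultures, 3 per genotype, each from a separate mouse. After trimming (Trimmomatic 0.32) and alignment to mm10 (STAR 2.3.0e), the authors deposited raw exon counts per gene from featureCounts (1.4.4), as the submitters' notes and methods state. They kept alignments to at most 2 locations, which lowers genes with many near-identical copies. The strand setting is not given in the sources used here. The kit was stranded and rRNA was depleted. Of genes with 1 to 9 counts, 28.9% to 30.2% had an odd count, against 49.4% to 49.8% of highly counted genes. Whether both mates of a read pair were counted is not given in the sources used here, so floors in counts may stand for fewer fragments.

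Genes were placed with the GENCODE annotation of GRCm38, 37693 by identifier and 803 by symbol, with 521 unmatched. The 398 chromosome Y genes were left out, as in the study. The main test was edgeR's (4.0.16, R 4.3.3) quasi-likelihood test with TMM, filterByExpr (minimum count 10) and genotype as the term, with Benjamini-Hochberg adjustment over all 18268 genes tested and calls at 0.05. The fit was tested on simulated data. Floors of 3 counts cover counting error only. Alternatives were DESeq2 (1.42.0) size factors and its Wald test, limma-voom (limma 3.58.1), total library size, no filter, chromosome Y kept, a replicate block, sex as a covariate and each library left out. A removal of GC content and length trends was added after seeing the data. Named were all 33 members, Prmt1 and, of each further list, the genes called or else the one with the smallest p. Members and lists were chosen with earlier results of these data known.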

Additional observations from a re-analysis of the deposited data

How the results depend on the processing

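The number of genes called over the whole table was 218. It was 727 with the DESeq2 Wald test, 710 with no filter on low counts, 346 after removal of GC content and length trends, 152 with the replicate block and 31 to 350 with single libraries left out, where each of the 6 libraries moved it by over 1.5 times. The number of members called was 0, against 5 with the DESeq2 Wald test, 3 with limma-voom, 7 with no filter, 3 with sex as a covariate and 0 to 4 with single libraries left out. Of the other pathway genes 2 were called, against 5 with the DESeq2 Wald test, 7 with no filter, 1 with the replicate block and 1 to 4 with single libraries left out. The cause of these shifts was not tested. The replicate numbers name different mice, and deviations of same-numbered libraries correlated at -0.07, 0.04 and -0.08, so they were not treated as pairs. Under the replicate block and after removal of GC content and length trends, Ddit4 was no longer called (adjusted p up to 0.0564). Kdm3a, at 0.00066 on the log2 scale, turned to -0.0008 with DESeq2 size factors and with the DESeq2 Wald test, to -0.0104 with total library size, and to -0.0498 to 0.0646 with single libraries left out. Leaving out single libraries also turned Gpi1 (-0.0574 to 0.0246), Pfkm (-0.104 to 0.0645) and Bnip3l (-0.0429 to 0.0200). It moved by over 1.5 times, with no call, the log2 fold changes of Gapdh (0.0859 without Control 3), Pfkfb4 (0.156 without Control 1), Eno1 (0.0984 without Control 1 and 0.0958 without Prmt1-null 2), Ankrd37 (0.19 without Control 2 and 0.0341 without Control 3), Pdk1 (-0.103 without Control 2) and Pgam1 (0.105 without Prmt1-null 3). P4ha1 ranged from 0.0344 to 0.264, moved by each library but Prmt1-null 3. Hk1 ranged from 0.0100 to 0.116 and Slc16a1 from 0.0233 to 0.138, each moved by 4 of the 6 libraries. Closer to zero, Hif1a ranged from 0.0113 to 0.0446 and Egln3 from -0.0701 to -0.0181. After removal of GC content and length trends Eno1 was at 0.0805, Egln1 at 0.0748, Hk1 at 0.0035, Gpi1 at -0.0624, Pfkm at -0.107, Egln3 at -0.0864 and Bnip3l at -0.0228. The removal of GC content and length trends was chosen after seeing the data. Ldhb and P4ha2 had too few counts to be tested.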
